A study of Drosophila melanogaster with 6 samples.

Results

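The antioxidant enzymes and glutathione transferases of Drosophila form a redox gene set of 46 listed symbols, which name 44 genes. A gene was taken as measured where a probe set of the array carried its symbol alone, and the probe set with the highest mean over the 6 arrays stood for it. This gave 40 genes of 11982 on the array with a single symbol. Sod1, Jafrac1, Prx5 and Ho are not analysed here. PHGPx and GTPx-1 both lead to the gene now called Gtpx, and Prx6005, Trx-2 and Trxr-1 are given under their present symbols Prx6a, Trx2 and Trxr1.

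The arrays were Affymetrix Drosophila Genome 2.0 GeneChips hybridised with amplified total RNA of S2 cells, a line first grown from fly embryos that resembles blood cells (hemocytes). There were 3 arrays of ROW RNAi cells, kept for 96 h with double-stranded RNA that targets ROW, and 3 arrays of control cells, which the labels call wild type. ROW (relative of WOC) has zinc fingers and is found on chromatin together with HP1c. No double-stranded RNA is named for the controls, so depletion of ROW and soaking in double-stranded RNA cannot be told apart, and since separate cultures are not mentioned either, the p-values rest on a spread between arrays that may be technical.

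Superoxide dismutases turn superoxide into hydrogen peroxide, which catalase, peroxiredoxins and glutathione peroxidase remove. Flies lack a glutathione reductase, so thioredoxin and thioredoxin reductase also keep glutathione reduced. Glutathione transferases (GSTs) join glutathione to reactive compounds, and many of their genes are induced by CncC, the fly counterpart of the mammalian factor Nrf2, which binds DNA with the small Maf protein and is held back by Keap1.

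All values are deposited log2 values from RMA, a procedure that corrects background, brings the arrays to a shared distribution and summarises the probes of each set. A difference is ROW RNAi minus control on this log2 scale, with the standard error (SE) of limma and p-values adjusted over all 18769 tested probe sets by the Benjamini-Hochberg method, threshold 0.05. Levels of different genes are not set against each other, because probes differ in how strongly they bind. The data are of bulk cells, in which fewer cells of a type and less RNA per cell cannot be told apart.

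The row transcript, targeted by the RNAi, stood at 9.04, 8.91 and 8.91 in the ROW RNAi arrays, against 10.44, 10.60 and 10.54 in the control arrays, on its brightest probe set. That left 33.5% of the control level, and 16.4% and 15.9% on the other row probe sets. The 12 hemocyte markers measured were above background on all arrays, where background is 3.39, the 95th percentile of 17 tag control probe sets. Among them the scavenger receptor genes Sr-CIV (0.86, adjusted p = 0.0095) and Sr-CI (0.62, adjusted p = 0.022) rose and He (−0.69, adjusted p = 0.010) fell in ROW RNAi cells, and the part of this in the redox results was not tested. ROW RNAi replicate 2 stood apart from the other ROW RNAi arrays, with a score of −19.5 on the first principal component, against 42.7 and 20.8 for replicates 1 and 3 and −3.69, −26.5 and −13.7 for the controls. Of 10 germline markers 6 were above background on all arrays and aly on 0. The mean of the 10 was 6.55, 5.99 and 6.30 in the ROW RNAi arrays, against 6.14, 5.99 and 6.07 in the control arrays. The widest spread was that of vas, with 6.50, 3.47 and 5.91 in ROW RNAi cells and 4.20, 2.91 and 3.62 in control cells. In nanos, aub and topi every ROW RNAi array lay below every control array. In dj and can every one lay above, but these were above background on 2 and 1 arrays.

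Expression of the redox genes differed little between ROW RNAi and control cells. Of the 40 genes, 0 passed the limma threshold, against 1.16% of all tested probe sets (0.405% higher in ROW RNAi cells and 0.757% lower). Among the probe sets above the median level, 2.09% passed. At an unadjusted p under 0.05 there were 5 of the 40, or 12.5%. The shares at that p were 13.8% of all tested probe sets and 16.8% of those above the median level. The 5 genes were GstE3, GstO3 and GstD3, higher in ROW RNAi cells, and Keap1 and GstD5, lower. The share of higher calls among all tested probe sets was 4.53% and that of lower calls 9.27%. With a variance that follows the level and resists outliers, limma called 4 of the 40, namely GstD3, GstE3, GstO3 and GstD5, against 2.97% of all probe sets. That share is not limited to probe sets above the median level, where 38 of the 40 lie. Fitted to probe sets above the median level alone it called 3 of the 38 tested, namely GstD3, GstD5 and GstE3, against 6.13%. An unmoderated test called 1, GstD3, against 0.65%.

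The sizes of change were bounded. The log2 fold changes ran between −0.21 and 0.23, and the 95% interval lay within 1.5-fold in either direction for each of the 39 genes above background on all arrays, which leaves out MtnB. Among all tested probe sets, 15041 of 18769 had an interval within 1.5-fold, and among those above the median level 8292 of 9384. These intervals are per gene and without adjustment, and they describe folds of RMA values, which RNA amplification and probe summarisation may make smaller. The median SD of the set was 0.050 over its ROW RNAi arrays and 0.042 over its control arrays, against 0.070 and 0.054 for probe sets above the median level. Of the 40 genes, 38 lay above that median.

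**Figure D1:**
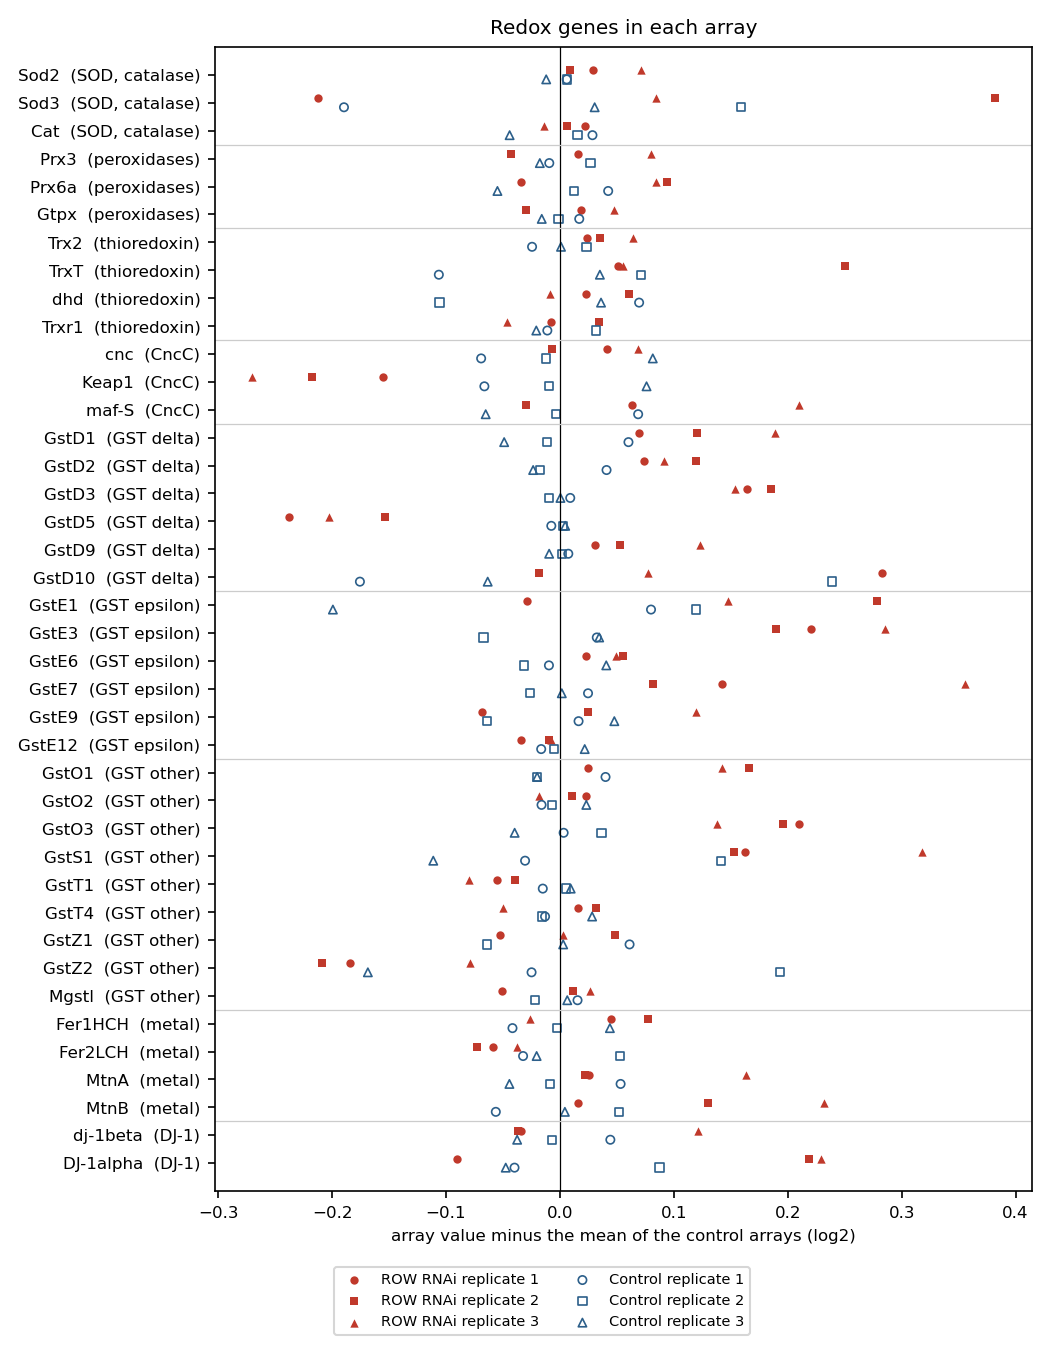
Each point is 1 array, as its log2 value minus the mean of the 3 control arrays of that gene; filled red symbols are ROW RNAi arrays and open blue symbols control arrays. Sod3 has the widest spread, while GstD3, GstD5, GstE3, GstO3 and Keap1 show 3 ROW RNAi points on the same side, clear of the controls.

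More genes stood above 0 than below it. The difference was above 0 in 29 of the 39 genes above background, with a median of 0.04, against 7821 of 18769 tested probe sets above 0 and a median of −0.03. Array by array, the median over the 40 genes was 0.02, 0.03 and 0.07 above the control mean in ROW RNAi replicates 1, 2 and 3. With median centring of the arrays, which lowered every difference by 0.05, 17 of the 39 were above 0. Their median turned to −0.01 and that of all tested probe sets to −0.07. The direction of the set against 0 thus depends on the scaling. Median centring moves both medians alike, so it cannot change the gap between them. With cyclic loess the medians of the set and of all tested probe sets were 0.04 and 0.01. With a further quantile normalization they were 0.04 and −0.02. The 3 ROW RNAi and 3 control arrays did not overlap in 14 of the 40 genes, or 35.0%, against 21.4% of all tested probe sets and 29.3% of those above the median level. Of these 14, 10 were higher in ROW RNAi cells and 4 lower, against 7% and 14.4% of all tested probe sets. Among the 9384 probe sets above the median level, 917 were higher and 1829 lower without overlap. This split was taken without median centring.

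**Figure D2:**
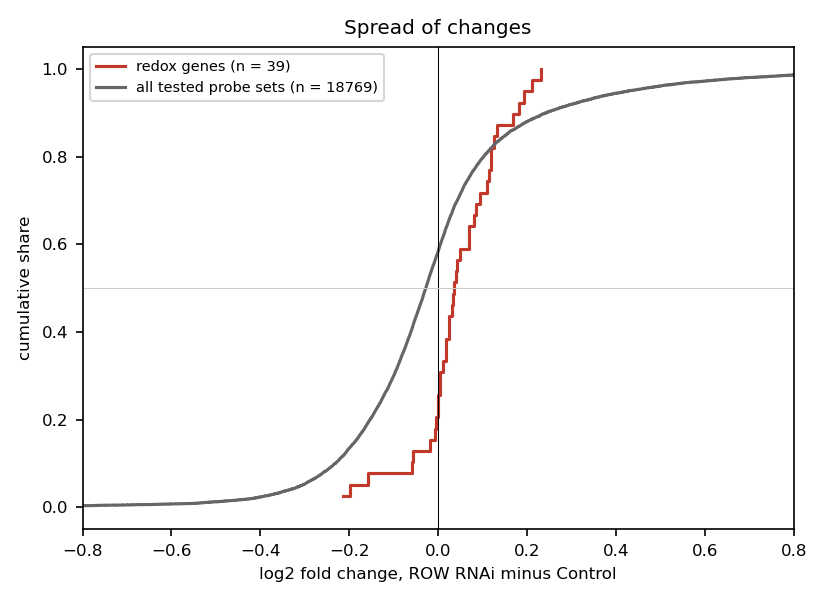
The cumulative share (vertical axis) of log2 fold changes, ROW RNAi minus control (horizontal axis, shown between −0.8 and 0.8), for the 39 redox genes above background in red and all 18769 tested probe sets in grey. The red line is steeper and crosses the middle at 0.04, against −0.03 for the grey line.

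The enzymes that act directly on superoxide and peroxide were nearly level between the groups. Sod2, the mitochondrial manganese superoxide dismutase, had values of 12.04, 12.02 and 12.09 in ROW RNAi cells and 12.02, 12.02 and 12.00 in control cells. Catalase, encoded by Cat, stood at 11.27, 11.25 and 11.23 in ROW RNAi cells, against 11.27, 11.26 and 11.20 in control cells. The interval of the Cat difference ran from −0.11 to 0.12. Sod3, the extracellular superoxide dismutase, spread more than any other member within the ROW RNAi group, at 4.94, 5.54 and 5.24, against 4.97, 5.32 and 5.19 in control cells. Its difference of 0.08 had the widest interval of the set, from −0.34 to 0.51. A dimmer Sod3 probe set gave 0.12.

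Gtpx encodes the glutathione peroxidase homolog of the fly. Its values were 12.52, 12.47 and 12.55 in ROW RNAi cells and 12.52, 12.50 and 12.48 in control cells, with a difference of 0.01 (SE 0.05). The mitochondrial peroxiredoxin Prx3 differed by 0.02 (SE 0.05) and Prx6a, a peroxiredoxin with a single catalytic cysteine, by 0.05 (SE 0.06). In all 3 peroxidase genes the arrays of the groups overlapped, and adjusted p-values lay between 0.73 and 0.92.

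Trx2, the main cytosolic thioredoxin, differed by 0.04 (SE 0.04) and its reductase Trxr1 by −0.01 (SE 0.05). The germline members of the family, TrxT of the testis and dhd of the ovary, were both above background on all arrays. TrxT had 6.16, 6.36 and 6.16 in ROW RNAi cells, against 6.00, 6.18 and 6.14 in control cells, a difference of 0.12 (SE 0.08, adjusted p = 0.55). Its highest array was ROW RNAi replicate 2, the one in which the mean of the germline markers was lowest within the group, and their part in the TrxT values was not tested. For dhd the difference was 0.02 (SE 0.06).

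Keap1 was the redox regulator with the lowest p. Its values were 9.42, 9.35 and 9.30 in ROW RNAi cells, against 9.50, 9.56 and 9.65 in control cells. Every ROW RNAi array lay below every control array, with a difference of −0.21 (SE 0.06), or 0.862-fold (95% interval 0.777 to 0.956). The unadjusted p was 0.013 and the limma adjusted p 0.22, so the difference did not pass. Without 1 array at a time it stayed between −0.25 and −0.18.

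The partners of Keap1 gave no such separation. The brighter probe set of cnc had 9.66, 9.61 and 9.69 in ROW RNAi cells and 9.55, 9.61 and 9.70 in control cells, a difference of 0.03 (SE 0.06). A second cnc probe set was not above background on any array. The gene encodes several isoforms, and which of them the brighter probe set reads was not checked. For maf-S, the small Maf partner, the difference was 0.08 (SE 0.08), with overlapping arrays.

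The GSTs held 4 of the 5 genes with a small unadjusted p. They count 21 members, of which 14 were above 0 (11 with median centring). At an unadjusted p under 0.05, 3 were higher and 1 was lower, or 19.0%. The shares at that p were 13.8% of all tested probe sets and 16.8% of those above the median level. Arrays did not overlap in 8 that were higher and 2 that were lower, 47.6% of the class, against 21.4% of all tested probe sets and 29.3% of those above the median level. The 19 other redox genes had 2 higher and 2 lower without overlap, or 21.1%, to be read beside the same 21.4% and 29.3%. The difference between the GSTs and the other redox genes was not tested.

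In the delta class, whose genes lie close together on chromosome arm 3R, 5 of 6 members were above 0. GstD3 had 11.43, 11.45 and 11.42 in ROW RNAi cells, against 11.28, 11.26 and 11.27 in control cells. The groups were apart by far more than the spread within either, and the difference was 0.17 (SE 0.04, adjusted p = 0.18). GstD5 went the other way, with 9.53, 9.61 and 9.56 in ROW RNAi cells and 9.76, 9.77 and 9.77 in control cells. Its difference of −0.20 (SE 0.05) had the lowest p of the set, 0.0057 before adjustment and 0.16 after.

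GstD1, the delta enzyme known for breaking down DDT and a common reporter of CncC activity, had 11.11, 11.17 and 11.23 in ROW RNAi cells, against 11.11, 11.03 and 10.996 in control cells. ROW RNAi replicate 1 barely cleared control replicate 1, and the difference of 0.13 (SE 0.06) had an adjusted p of 0.40. GstD2 had 8.89, 8.93 and 8.90 in ROW RNAi cells and 8.85, 8.79 and 8.79 in control cells, a difference of 0.10 (SE 0.05, adjusted p = 0.43). GstD9 had 10.26, 10.28 and 10.35 in ROW RNAi cells and 10.24, 10.23 and 10.22 in control cells, a difference of 0.07 (SE 0.05). In each of these 3 genes all ROW RNAi arrays were above all control arrays by a small margin. GstD10 differed by 0.11 (SE 0.13) with overlapping arrays.

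In the epsilon class GstE3 showed the largest positive difference of the whole set. It had 11.53, 11.50 and 11.60 in ROW RNAi cells, against 11.34, 11.24 and 11.34 in control cells. The groups did not overlap, and the difference of 0.23 (SE 0.06) is 1.17-fold with a 95% interval from 1.07 to 1.29 and an adjusted p of 0.16. GstE7 had 9.84, 9.77 and 10.05 in ROW RNAi cells, against 9.72, 9.67 and 9.70 in control cells, and ROW RNAi replicate 3 was the highest. Its difference was 0.19 (SE 0.08, adjusted p = 0.38), and without that array 0.11. The other epsilon members were closer to 0, with GstE1 at 0.13 (SE 0.12), GstE6 at 0.04 (SE 0.05), GstE9 at 0.03 (SE 0.07; −0.06 on a dimmer probe set) and GstE12 at −0.02 (SE 0.04).

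**Figure D3:**
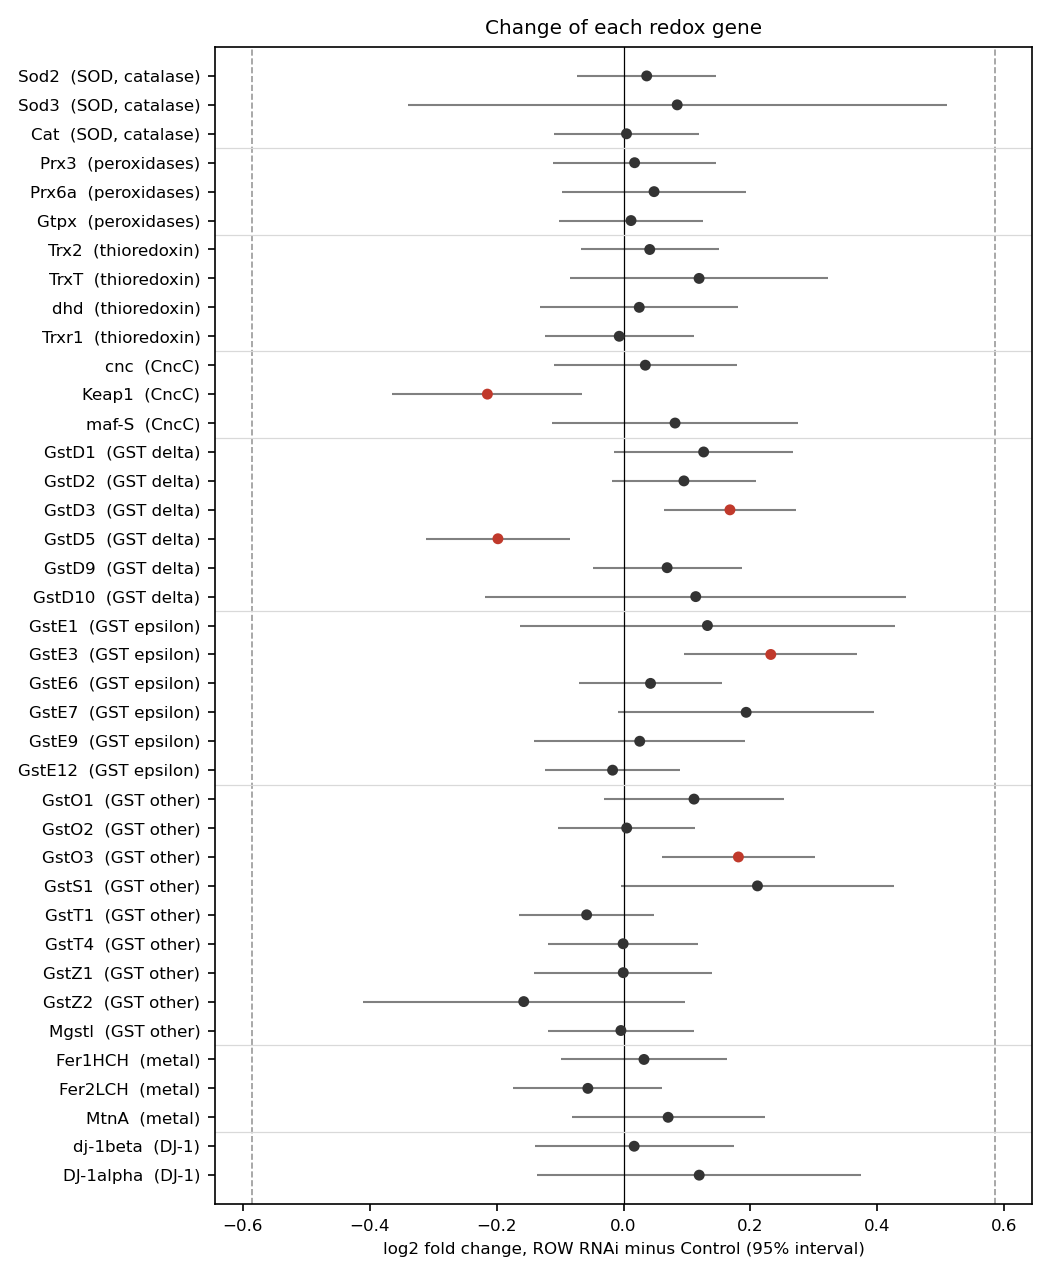
Log2 fold change of the 39 redox genes above background, ROW RNAi minus control, with its 95% interval; dashed lines mark 1.5-fold in each direction and red points an unadjusted p under 0.05. No interval reaches a dashed line, and the 5 red points are GstE3, GstO3, GstD3, GstD5 and Keap1.

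Omega GSTs resemble glutaredoxins. GstO3 had 12.43, 12.42 and 12.36 in ROW RNAi cells, against 12.23, 12.26 and 12.18 in control cells. Its groups did not overlap, with a difference of 0.18 (SE 0.05, adjusted p = 0.21). GstO1 stood at 9.19, 9.33 and 9.31 in ROW RNAi cells and at 9.20, 9.14 and 9.14 in control cells, so that ROW RNAi replicate 1 fell within the control range (difference 0.11, SE 0.06). GstO2 was level, at 0.01 (SE 0.04) on its brighter and 0.04 on its dimmer probe set.

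GstS1, the sigma enzyme that conjugates lipid aldehydes, had 7.98, 7.97 and 8.13 in ROW RNAi cells, against 7.78, 7.96 and 7.70 in control cells. The ROW RNAi arrays were all higher, but control replicate 2 came close to them, and the difference was 0.21 (SE 0.09, adjusted p = 0.37). GstT1 of the theta class had 12.28, 12.29 and 12.25 in ROW RNAi cells and 12.32, 12.34 and 12.34 in control cells, a difference of −0.06 (SE 0.04). The other theta member, GstT4, had 12.84, 12.85 and 12.77 in ROW RNAi cells, against 12.81, 12.81 and 12.85 in control cells, and its groups overlapped.

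Zeta GSTs act as isomerases in the breakdown of tyrosine. GstZ2 had 5.05, 5.03 and 5.16 in ROW RNAi cells and 5.21, 5.43 and 5.07 in control cells, with a difference of −0.16 (SE 0.10) and overlapping arrays. GstZ1 differed by less than 0.01, with an interval from −0.14 to 0.14. The microsomal transferase gene Mgstl was as level, with an interval from −0.12 to 0.11.

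Iron and metal binding proteins limit the metals that drive radical formation. Fer1HCH and Fer2LCH encode the heavy and light chains of ferritin. Fer1HCH had 12.85, 12.88 and 12.78 in ROW RNAi cells, against 12.77, 12.80 and 12.85 in control cells, a difference of 0.03 (SE 0.05). Fer2LCH had 7.37, 7.35 and 7.39 in ROW RNAi cells, against 7.39, 7.48 and 7.41 in control cells, a difference of −0.06 (SE 0.05). The Fer2LCH arrays just failed to overlap, and neither chain passed.

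MtnA, a metallothionein, had 12.40, 12.39 and 12.53 in ROW RNAi cells and 12.42, 12.36 and 12.33 in control cells (difference 0.07, SE 0.06). MtnB, another metallothionein, was not above background on any of the 6 arrays, with 3.18, 3.29 and 3.39 in ROW RNAi cells and 3.10, 3.21 and 3.16 in control cells, so no fold is given. Of the DJ-1 proteins, which protect against oxidative damage, dj-1beta differed by 0.02 (SE 0.06) and DJ-1alpha by 0.12 (SE 0.10), both with overlapping arrays.

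Of the GST genes outside the set, 18 were measured, with differences between −0.28 and 0.48. Of these, 0 passed the threshold and 5 had an unadjusted p under 0.05, 4 higher and 1 lower. That is 27.8%, against 13.8% of all tested probe sets (4.53% higher and 9.27% lower). The median difference of the 18 was −0.08. The list counts eEF1gamma, gfzf and Gdap1 as GST genes. It was chosen with earlier results of these data known, so its share is no independent support. GstD7 and GstE2, which were higher, and GstE13, which was lower at −0.18, passed with trend and robust variance and with the filter at the median level. GstD7 had 8.30, 8.37 and 8.57 in ROW RNAi cells, against 7.82, 8.04 and 7.94 in control cells, a difference of 0.48 (SE 0.10, adjusted p = 0.12). GstE2 had 11.56, 11.62 and 11.44 in ROW RNAi cells, against 11.23, 11.26 and 11.27 in control cells, a difference of 0.29 (SE 0.06, adjusted p = 0.14). Both were without overlap between the groups.

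Read along the chromosome, in the gene order of the reference table (assembly Release 6 plus ISO1 MT), the delta genes did not share a direction. GstD10, GstD9, GstD1, GstD2 and GstD3 were above 0, then GstD4 stood at −0.12, GstD5 at −0.20 and GstD6 at −0.16, then GstD7 at 0.48, GstD8 at −0.11 and GstD11 at 0.35. Of these delta genes, GstD3, GstD5 and GstD7 alone had a 95% interval clear of 0. In GstD4, GstD6, GstD8 and GstD11 the arrays of the groups overlapped. On arm 2R the epsilon genes from GstE1 to GstE9 were above 0 on their brightest probe sets, with GstE2 at 0.29, GstE3 at 0.23, GstE4 at 0.43 and GstE5 at 0.23 each without overlap; 2 other genes lie between GstE3 and GstE4. With median centring GstE6 and GstE9 were below 0, and GstE9 was below 0 also on its dimmer probe set and without Control replicate 2 or ROW RNAi replicate 3. GstE8, which lies in this run, is not analysed here, and GstE10 at its edge stood at −0.06. None of these genes passed the threshold, and the look at gene order was chosen after the values were seen. GST genes of 1 class are similar in sequence, and whether a probe set also binds transcripts of a neighbour was not checked.

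**Figure D4:**
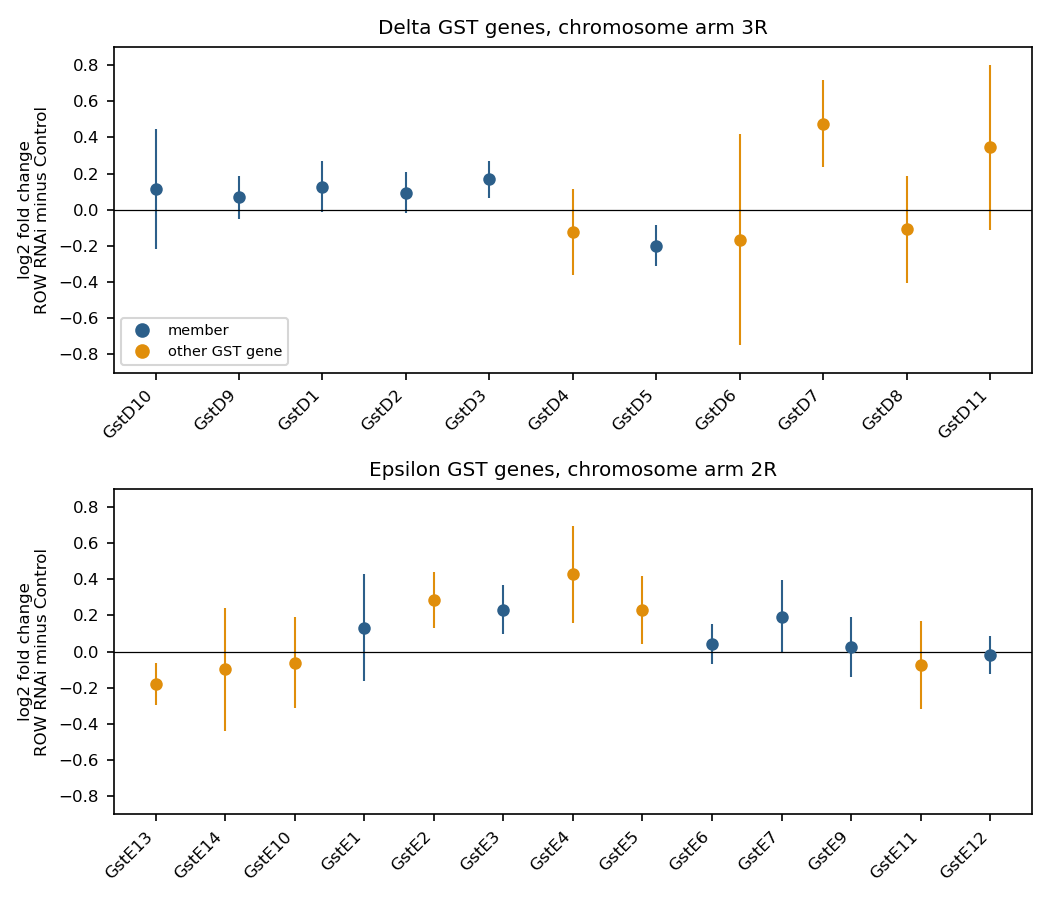
Log2 fold change, ROW RNAi minus control, with 95% intervals for delta (upper) and epsilon (lower) GST genes, from left to right in their order on the chromosome arm and not to scale; blue points are members and orange points other GST genes. GstE1 to GstE9 lie above 0 on their brightest probe sets, which does not hold for GstE6 and GstE9 with median centring, nor for GstE9 on its dimmer probe set or without Control replicate 2 or ROW RNAi replicate 3, whereas GstD3 at 0.17 and GstD5 at −0.20 lie on opposite sides of it.

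Outside the GSTs, genes of cysteine supply were lower in ROW RNAi cells. They come from 6 related lists chosen with earlier results of these data known, so the share called in the lists is no independent support. Of 78 measured genes in these lists, 2 passed the threshold, or 2.56%. The share was 1.16% of all tested probe sets and 2.09% of those above the median level. Both genes were lower in ROW RNAi cells, Cbs and Cth, which encode the enzymes that turn homocysteine into cysteine. Cth had 11.37, 11.39 and 11.23 in ROW RNAi cells, against 11.86, 11.87 and 11.90 in control cells, a difference of −0.55 (SE 0.06, adjusted p = 0.021). Cbs had 11.07, 11.02 and 10.84 in ROW RNAi cells, against 11.52, 11.45 and 11.55 in control cells, a difference of −0.53 (SE 0.08, adjusted p = 0.048). Cth fell to 0.685-fold and Cbs to 0.695-fold, each with no overlap between the groups. Both passed with each of 6 alternatives, namely a further quantile normalization, cyclic loess, both filters on dim probe sets, trend and robust variance, and array weights. Neither passed with median centring, an unmoderated test or a block for the replicate number. Leaving out 1 array ended the Cbs call each time and that of Cth except without ROW RNAi replicate 2 (adjusted p = 0.034).

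The remaining lists held 0 genes past the threshold. Over all 6 lists the alternatives called between 0 and 9 genes: 4 higher and 5 lower with the filter at the median level, 3 higher and 4 lower with trend and robust variance, and 2 higher and 1 lower without ROW RNAi replicate 2. Besides the GSTs, Cbs and Cth, these were Mvl, Tsf2, Pxn and Cyp6a8 with the filter, Mvl and Pxn with trend and robust variance, and Gclm and Cyp6a8 without that array. Among 10 measured genes of glutathione synthesis and NADPH supply, the 8 others did not pass, and Gclc, the catalytic subunit that makes glutathione's precursor, stood at 0.03 (SE 0.05). Among 12 other thioredoxin, glutaredoxin and peroxidase genes, the median difference was 0.00, and Prx6c stood at −0.13 (adjusted p = 0.57). Trxr2 was above background on 2 of 6 arrays, with 3.33, 3.25 and 3.01 in ROW RNAi cells and 3.35, 3.40 and 3.52 in control cells, so no fold is given. Among 19 iron and metal genes, the transferrin gene Tsf2 stood at −0.32 (SE 0.07, adjusted p = 0.12) and the metal transporter gene Mvl at 0.18 (SE 0.04, adjusted p = 0.17), both without overlap. Pxn, the peroxidasin of hemocytes, stood at −0.20 (SE 0.05, adjusted p = 0.19) and Pxt at −0.34 (SE 0.20) among 8 peroxide and peroxidase genes. Of 11 genes around Keap1 and CncC, the cytochrome P450 gene Cyp6a8 was furthest from 0, at 0.56 (SE 0.11, adjusted p = 0.12), and Mitf stood at −0.28 (SE 0.13).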

How the data were processed

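Per the submitters' processing notes, the authors made the deposited log2 values with RMA, with no version given. Per the labels' protocols, 25 ng of total RNA was amplified with SPIA and labelled with biotin. Of 18952 probe sets, 183 Affymetrix controls were left out and 18769 tested without a filter. Symbols came from the platform annotation, brought to present symbols through gene IDs in the RefSeq table: 13647 probe sets had 1 symbol, 402 several and 4720 none. Groups were compared over 3 arrays each with limma 3.58.1 (lmFit and eBayes, two-sided) in R 4.3.3, on all 6 arrays. Precision is limited by how many arrays there are. The fit was tested on simulated data. Tables and figures used pandas 2.3.3 and matplotlib 3.10.9 in Python 3.11.15.

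The members and the wider lists were chosen with earlier results of these data known. Values in every array are given for the 16 members with the lowest p and the 6 with the highest level, which are 20 genes, and for a few others shown beside them. From each wider list, genes past the threshold and the 2 lowest in p are named. GstE4, GstE5, GstE10, the delta genes in gene order and Gclc were named after their values were seen. Some probe sets, such as those of Trx2, Gtpx, cnc, Keap1, GstS1, both ferritins and Cbs, are of a type the array maker marks as shared between transcripts. Alternatives were other scalings, filters, variance models, array weights, a block for replicate numbers, averaging the probe sets of a gene, and leaving out each array. No sequence table was at hand.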

Additional observations from a re-analysis of the deposited data

Results flagged for a closer look

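The 18 hybridization control probe sets, which lie outside the comparison, averaged 11.9 on ROW RNAi replicate 2, above each control array (11.4, 11.5 and 11.5), and 11.4 on ROW RNAi replicates 1 and 3. The part of this array's hybridization in any redox gene's difference was not tested. Without it 0 of the 40 genes passed and the median over them was 0.04.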

How the results depend on the processing

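Of 318 recomputed differences of the 20 members followed, 304 kept their direction and side of the threshold, 8 passed it and 6 turned sign: Gtpx (−0.035 with median centring; −0.0058 to 0.033 without 1 array, the lowest without ROW RNAi replicate 3), Fer1HCH (−0.015 with median centring), Fer2LCH (0.0017 with cyclic loess) and GstT4 (−0.017 to 0.024 without 1 array, above 0 without ROW RNAi replicate 3 or Control replicate 3). Members past the threshold numbered 0 in 13 of 16 alternatives, 3 among probe sets above the median mean, 4 with trend and robust variance and 1 with the unmoderated test. Those at an unadjusted p under 0.05 (5, of which 3 higher) numbered 2 and 0 higher with median centring, 8 and 6 with a further quantile normalization or array weights, 12 and 10 with cyclic loess, 9 and 7 with the filter at the median mean and 9 and 6 with trend and robust variance. Without 1 array they were 5 to 8, of which 3 to 6 higher and 2 lower; 8 came without ROW RNAi replicate 1. The same 5 genes kept p under 0.05 in each of 15 refits other than median centring, which kept 2. The median of the members was −0.0080 with median centring and 0.03 to 0.05 without 1 array; median centring moved that of all probe sets to −0.07.

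Over all probe sets the counts past the threshold (218, 76 higher, 142 lower) were 107, 33 and 74 with median centring, 575, 207 and 368 above the median mean, 558, 222 and 336 with trend and robust variance, and 122, 43 and 79 unmoderated. They were 24 to 517, 5 to 259 and 19 to 258 without 1 array, and 517 came without ROW RNAi replicate 2. With the replicate number as a block they were 0, 0 and 0 in limma, with 15.6% at an unadjusted p under 0.05, while 5 members kept p under 0.05 and 0 passed. Arrays that share a number had correlated deviations of 0.48, 0.55 and −0.04. For arrays of unlike number the correlations ran from −0.54 to 0.25. The lowest were −0.54 (ROW RNAi replicate 2 with Control replicate 1) and −0.52 (ROW RNAi replicate 1 with Control replicate 2). Whether the numbers pair the arrays cannot be told from these values, and the main fit did not take them as pairs. Apart from fewer probe sets or arrays tested, the cause was not tested.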

Other observations

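Gclm, which encodes the modifier subunit of the enzyme that starts glutathione synthesis, was chosen after its values were seen. It had 7.43, 6.05 and 7.17 in ROW RNAi cells, against 6.58, 6.20 and 6.24 in control cells. ROW RNAi replicates 1 and 3 lay above every control array and replicate 2 below all of them, so that the difference was 0.55 (SE 0.37, limma adjusted p = 0.54). Without ROW RNAi replicate 2 it was 0.96 (SE 0.15, adjusted p = 0.049), and without other single arrays the adjusted p lay between 0.59 and 0.83. ROW RNAi replicates 1 and 3 were also the highest on the first principal component, whose part in the Gclm values was not tested. Gclc, the catalytic partner, had 10.74, 10.64 and 10.61 in ROW RNAi cells, against 10.61, 10.61 and 10.67 in control cells, with no such split.

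Cyp6a8, a detoxification gene of the cytochrome P450 family, had 5.78, 6.13 and 5.75 in ROW RNAi cells, against 5.38, 5.32 and 5.27 in control cells. Its groups did not overlap, and without ROW RNAi replicate 2 the difference was 0.44 (SE 0.06, adjusted p = 0.042). The adjusted p was 0.12 over all 6 arrays, 0.21 to 0.37 without each other array, 0.29 with median centring, 0.18 with the replicate block and 0.041 with the filter at the median level.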
